A study of Homo sapiens with 4 samples.

Results

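Small nucleolar RNA (snoRNA) host genes were followed in A549, an established human lung adenocarcinoma cell line. The 9 listed genes were chosen by name as noncoding hosts, with earlier results of these data known. Their counts beside the shares of all genes are therefore description only. Of the 9, 7 had a row in the deposited tables of 42113 gene models: ZFAS1, SNHG1, SNHG5, SNHG7, SNHG8, SNHG12 and SNHG15. GAS5 and SNHG6 were not analysed here. Each of the 4 groups held 1 library: cells stably infected with lentivirus carrying a short hairpin RNA (shRNA) against LIMA1 and given 10 µM nutlin-3a, cells with a negative control shRNA given the same dose, and the untreated LIMA1 shRNA and untreated control shRNA cells. RNA was taken after 24 h. LIMA1 encodes an actin-binding LIM-domain protein, and nutlin-3a raises p53 by occupying the p53 pocket of MDM2. All 4 groups share the lentiviral infection, and the sources used here do not give whether a line is a pool or 1 clone. With 1 library per group there are no replicates, so differences compare libraries and no test was made.

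A snoRNA host gene carries snoRNAs in its introns. After splicing, the introns are trimmed to snoRNAs, which guide the chemical modification of ribosomal and other RNAs: box C/D snoRNAs guide methylation of the ribose, and box H/ACA snoRNAs guide the conversion of uridine to pseudouridine. Some hosts encode ribosomal or nucleolar proteins, while the genes described here give a spliced RNA without a long reading frame. Many hosts start transcription in a pyrimidine tract, as ribosomal protein genes do, and spliced noncoding host RNAs are known substrates of nonsense-mediated decay, which removes RNAs with an early stop codon during translation. A host's RNA level therefore depends on both its transcription and its decay.

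The start sites show what these genes share outside their introns. RefSeq promoters (GRCh38.p14, a later build than the hg19 of the files, used for sequence only) were found for 6 of the 7 genes by symbol. The 50 bases before and the 50 bases from each annotated start are given 5′ to 3′ on the gene's strand. Capitals mark the longest unbroken run of C and T within 20 bases of the start (at SNHG1 2 runs of equal length), and TATAA where it lies 40 to 20 bases before it.
ZFAS1, chr20:49278592-49278691, plus strand: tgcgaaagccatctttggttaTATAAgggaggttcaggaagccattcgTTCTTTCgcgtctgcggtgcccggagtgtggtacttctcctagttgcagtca
SNHG1, chr11:62855836-62855935, minus strand: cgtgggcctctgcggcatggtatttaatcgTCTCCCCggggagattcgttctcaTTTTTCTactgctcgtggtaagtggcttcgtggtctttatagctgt
SNHG5, chr6:85678684-85678783, minus strand: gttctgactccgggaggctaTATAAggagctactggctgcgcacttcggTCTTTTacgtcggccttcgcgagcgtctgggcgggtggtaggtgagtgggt
SNHG7, chr9:136728135-136728234, minus strand: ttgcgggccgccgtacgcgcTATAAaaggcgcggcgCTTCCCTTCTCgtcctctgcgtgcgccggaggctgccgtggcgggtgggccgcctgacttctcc
SNHG8, chr4:118278712-118278811, plus strand: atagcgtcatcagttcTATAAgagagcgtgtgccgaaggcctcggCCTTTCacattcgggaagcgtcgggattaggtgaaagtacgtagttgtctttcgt
SNHG12, chr1:28581824-28581923, minus strand: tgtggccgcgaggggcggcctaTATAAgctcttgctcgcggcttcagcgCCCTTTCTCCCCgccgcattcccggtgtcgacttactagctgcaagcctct

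TATAA, searched on the gene's strand in that window, was present at 5 of the 6 starts, all but SNHG1, and at 3.77% of the 35116 full-length promoters in the table. Over the whole 300-base promoters (250 before and 50 after the start) and on both strands, TATAA was found in all 6 and in 20.4% of all promoters. The pyrimidine run was longest at SNHG12, with 12 bases, a length reached at 4.25% of all promoters, and at SNHG7, with 11 bases, reached at 5.97%. Runs of 7 bases at ZFAS1 and SNHG1, reached at 25.6% of promoters, and of 6 at SNHG5 and SNHG8, reached at 38.8%, were close to the median of 5 over all promoters. The run of SNHG7 begins at base -14 and ends before the annotated start. Neither run of SNHG1 holds the start, while the runs of ZFAS1, SNHG5, SNHG8 and SNHG12 do. CACGTG, the core that MYC-family factors bind, was found on both strands at once, being its own complement, in the promoter of SNHG7 alone (7.26% of all promoters hold it). TGATGCAA, the core of the element bound by the stress factor ATF4, was in none of the 6 and in 0.866% of all promoters on either strand. Such matches describe letters in a window and no binding.

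The gene models differ in what they carry and overlap. In GENCODE 29, SNHG1 holds 7 snoRNA models on its strand, SNHG12 holds 5, SNHG7 holds 4 and ZFAS1 holds 3. SNHG5, SNHG8 and SNHG15 hold 1 each. Names repeat among the models, SNORA16A at SNHG12 and SNORA17B at SNHG7, so the counts are of models and not of different snoRNAs. ZFAS1 overlaps the protein-coding gene ZNFX1 on the opposite strand, SNHG7 overlaps FAM69B and SNHG12 overlaps TRNAU1AP. The sources used here do not state whether counting used strand, so reads of these 3 hosts and of their antisense partners cannot be told apart. The start of ZFAS1 lies 248 bases from that of ZNFX1, and the start of SNHG1 lies 188 bases from that of SLC3A2, which encodes an amino acid transporter subunit, each pair pointing in opposite directions.

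Values are normalized counts: fragments per gene over 1 size factor per library, not divided by length. Summed over genes, each library came to 15.2 to 16.7 M fragments, with the value of 1 fragment read from its low values. Reads not assigned to a gene are not in that sum. LIMA1 stood at 133 and 68.3 normalized counts in LIMA1 shRNA cells with and without nutlin-3a, against 866 and 416 in control shRNA cells. The p53 target CDKN1A stood at 48106 and 34078 with nutlin-3a in LIMA1 and control shRNA cells, and at 1178 and 1066 in the same lines without it. The epithelial keratins KRT8 and KRT18 were between 55419 and 82811 in every library. All 5 alveolar type 2 markers were at 23.8 or less, SFTPA1 and SFTPB at 0 throughout. Of other cell types, fibroblast markers (5, COL1A2 at 0) summed to 30 and 62.5 with nutlin-3a in LIMA1 and control shRNA cells and to 68.3 and 133 untreated, while immune markers (4, CD3E at 0, almost all CD14) summed to 65.4 to 106 and endothelial markers (3) to 3.22 to 12.9. All 7 epithelial markers were measured, and 6 of them lay above 0 with nutlin-3a in both lines, KRT19 most, at 5840 against 2061 in LIMA1 shRNA cells and 3420 against 1278 in control shRNA cells. The exception was the adhesion gene EPCAM, at 31.1 and 111 with nutlin-3a in these lines and at 82.1 and 229 untreated. The part of these markers in the results below was not tested, and in bulk RNA fewer cells of a type and less RNA per cell cannot be told apart.

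None of the 7 host genes was measured in whole fragments throughout. Of their 28 values, 21 lay more than 0.1 from a whole multiple of what 1 fragment is worth, although evenly spread values would still land within that tolerance 20% of the time. SNHG12 was off whole in all 4 libraries, ZFAS1, SNHG5, SNHG7, SNHG8 and SNHG15 in 3 of 4, and SNHG1 in 2 of 4. Of the measured genes that could be checked, 18.0% had such a value. The host values are thus in part not whole fragments, and the reason was not tested. The counting intervals below, exact and at 95%, rest on fragments rounded to whole numbers and cover counting error only. The rows of 32 snoRNAs listed for these hosts and the unanalysed pair held at most 0.0627 normalized counts, that of SNORA61 in untreated control shRNA cells, and were otherwise at 0 or nearly so. Across the files, 329 of 361 snoRNA rows stayed under 0.5 fragments in all 4 libraries. The snoRNAs themselves were thus not measured, and whether RNAs of their length were kept in the libraries was not tested.

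**Figure D1:**
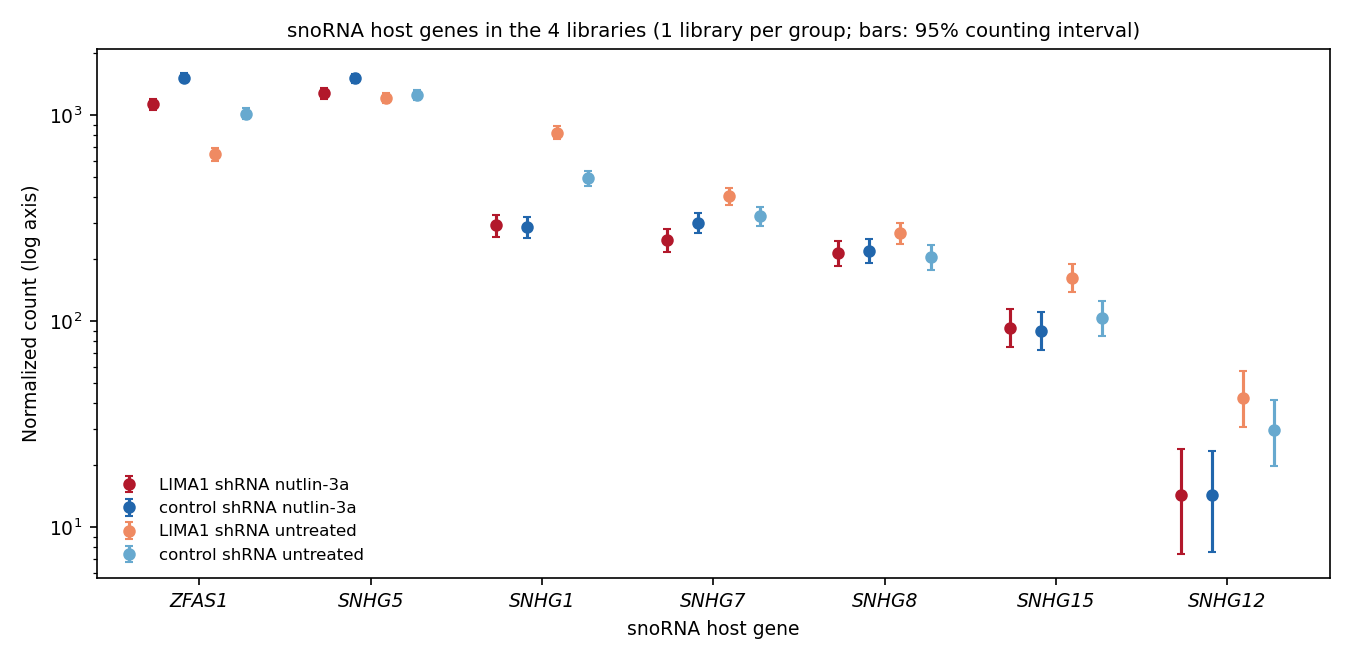
Normalized counts (log axis) of the 7 snoRNA host genes in the 4 libraries, 1 point per library, with 95% counting intervals as bars. SNHG1, SNHG15 and SNHG12 have their highest point in untreated LIMA1 shRNA cells and their lowest pair in the nutlin-3a libraries, whereas ZFAS1 has its lowest point, 646, in untreated LIMA1 shRNA cells.

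Levels between genes can only be set side by side per length. Taking the median GENCODE transcript length, untreated control shRNA cells held 1867 normalized counts per kb of SNHG5, 1536 of ZFAS1, 661 of SNHG1, 436 of SNHG8, 219 of SNHG7, 123 of SNHG15 and 27.1 of SNHG12. Transcript lengths within a gene vary widely (SNHG1 from 240 to 2768 bases), so the order depends on the transcripts present. SNHG1 would be at 179 per kb by its longest transcript and 2061 by its shortest. In these untreated control shRNA cells SNHG5 and ZFAS1 were the most abundant by either the median or the longest transcript, and SNHG12 the least. In untreated LIMA1 shRNA cells SNHG1, at 1103 per kb by the median length, stood above ZFAS1 at 972.5. By the longest transcript SNHG1 stood below ZFAS1 in that library, at 298.1 against 601.1 per kb.

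With nutlin-3a, the 7 genes split by direction, and the lower values were more marked in LIMA1 shRNA cells. ZFAS1 stood higher with nutlin-3a in both lines, and SNHG1 and SNHG12 lower in both. SNHG7, SNHG15 and, less, SNHG8 stood lower in LIMA1 shRNA cells, while in control shRNA cells their intervals held 0. SNHG5 had the narrowest spread, its highest library at 1.25-fold its lowest.

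SNHG1, the first described of the hosts without a protein, holds the most snoRNA models here. It had 292 normalized counts in nutlin-3a-treated LIMA1 shRNA cells and 286 in nutlin-3a-treated control shRNA cells. Untreated, it had 825 in LIMA1 shRNA cells and 495 in control shRNA cells. Both nutlin-3a values were below both untreated values, the nutlin-3a pair differed by less than counting error, and the untreated pair lay apart. On the log2(normalized count + 1) scale the nutlin-3a difference was -1.50 in LIMA1 shRNA cells (counting interval -1.70 to -1.30) and -0.79 in control shRNA cells (-1.0 to -0.58).

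SNHG12, which has the longest pyrimidine run printed above, had 14.4 normalized counts in each nutlin-3a library, 42.4 in untreated LIMA1 shRNA cells and 29.5 in untreated control shRNA cells. It is the least abundant of the group, with a mean of 25.2, under the mean of 30 set for a measured gene. The other 6 passed that filter. Its nutlin-3a difference was -1.50 in LIMA1 shRNA cells (-2.63 to -0.69) and -0.99 in control shRNA cells (-2.10 to -0.12). With a pseudocount of 30 in place of 1 these were -0.71 and -0.42.

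SNHG15 gives an RNA known for its short half-life. It had 92.7 and 89.9 normalized counts with nutlin-3a in LIMA1 and control shRNA cells, against 163 and 104 in the same lines untreated. Its nutlin-3a difference was -0.81 in LIMA1 shRNA cells (-1.20 to -0.42) and -0.20 in control shRNA cells (-0.62 to 0.21). Only the untreated LIMA1 shRNA library stood apart from the other 3.

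SNHG7, a host of H/ACA snoRNAs, had 248 and 301 normalized counts with nutlin-3a in LIMA1 and control shRNA cells, and 404 and 323 untreated in the same lines. The difference with nutlin-3a was -0.70 in LIMA1 shRNA cells (-0.94 to -0.47) and -0.10 in control shRNA cells (-0.33 to 0.12). SNHG8, host of SNORA24, spanned little, with 215 and 220 with nutlin-3a in LIMA1 and control shRNA cells against 267 and 205 untreated. Its nutlin-3a differences were -0.32 in LIMA1 shRNA cells (-0.59 to -0.05) and 0.10 in control shRNA cells (-0.17 to 0.38). Neighbouring libraries in the order of SNHG8 overlapped throughout in their counting intervals.

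ZFAS1, named for lying antisense to ZNFX1, went the other way. It had 1134 and 1523 normalized counts with nutlin-3a in LIMA1 and control shRNA cells, against 646 and 1021 in the same lines untreated. The nutlin-3a difference was 0.81 in LIMA1 shRNA cells (0.67 to 0.95) and 0.58 in control shRNA cells (0.46 to 0.69). Its antisense partner ZNFX1, which encodes a zinc finger helicase, was also higher with nutlin-3a, at 2706 against 1125 in LIMA1 shRNA cells and 1967 against 1106 in control shRNA cells, differences of 1.27 and 0.83. All 4 ZNFX1 values were whole fragments, and whether its reads contribute to ZFAS1 was not tested. SNHG5, host of the U50 snoRNAs, had 1278 and 1515 with nutlin-3a in LIMA1 and control shRNA cells and 1215 and 1255 untreated, differences of 0.07 (-0.04 to 0.19) and 0.27 (0.16 to 0.38).

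As a group, 2 of the 7 (SNHG1 and SNHG12) were lower by at least 1 in LIMA1 shRNA cells, where 6.08% of 12742 measured genes were, and none was higher, against 7.29% of genes. In control shRNA cells none reached 1 in either direction, against 5.54% of genes higher and 5.64% lower. By a size of 0.5, LIMA1 shRNA cells had 4 of 7 lower (SNHG1, SNHG7, SNHG12 and SNHG15), against 17.9% of genes, and 1 higher (ZFAS1), against 18.4%. Control shRNA cells had 2 of 7 lower by 0.5 (SNHG1 and SNHG12), against 16.0%, and 1 higher (ZFAS1), against 16.3%. The median over the 7 was -0.70 in LIMA1 shRNA cells and -0.10 in control shRNA cells, beside -0.02 over all measured genes in either line. Without SNHG12 the count lower by 1 was 1 of 6 in LIMA1 shRNA cells, and over the 5 genes with a mean of at least 150 the median was -0.32 there and 0.10 in control shRNA cells.

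**Figure D2:**
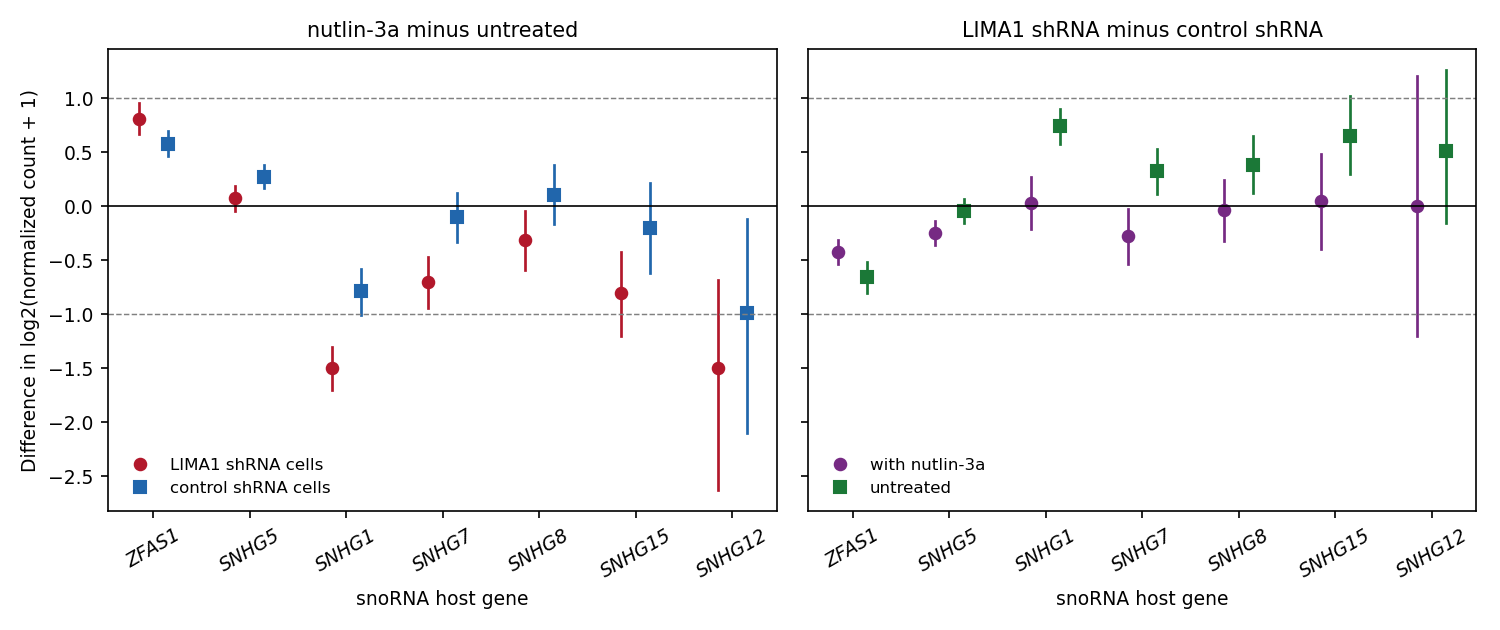
Differences in log2(normalized count + 1) of the 7 host genes, nutlin-3a minus untreated on the left (LIMA1 shRNA cells as circles, control shRNA cells as squares) and LIMA1 shRNA minus control shRNA on the right (with nutlin-3a as circles, untreated as squares). Lines are 95% counting intervals of the ratio and dashes mark 1 and -1. SNHG1 lies at -1.50 and -0.79 on the left, and at 0.03 with nutlin-3a and 0.74 untreated on the right.

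Between the lines, SNHG1, SNHG15, SNHG12, SNHG8 and ZFAS1 differed more in untreated cells than with nutlin-3a. SNHG7 differed by similar sizes in both, and SNHG5 differed beyond counting error only with nutlin-3a. In untreated LIMA1 shRNA cells SNHG1 was 1.67-fold the untreated control level, a difference of 0.74 (0.58 to 0.90), SNHG15 was 1.57-fold, a difference of 0.65 (0.30 to 1.02), and SNHG12 1.44-fold, a difference of 0.51 whose interval held 0 (-0.16 to 1.26). SNHG8 differed by 0.38 (0.12 to 0.65) and SNHG7 by 0.32 (0.11 to 0.53). SNHG5 differed by -0.05 (-0.16 to 0.07), and ZFAS1 was lower, at 0.633-fold, a difference of -0.66 (-0.80 to -0.52). None of the 7 reached a size of 1, which 1.04% of genes did on the high side and 2.05% on the low side. A size of 0.5 was reached by 3 of 7 on the high side (SNHG1, SNHG12 and SNHG15), against 4.96% of genes. On the low side 1 (ZFAS1) reached it, against 7.71%. SNHG12 is under the mean of 30 that the genes in these shares passed. With no filter on low values, 7.96% of genes were higher by 0.5. The median over the 7 was 0.38, beside 0.02 over all measured genes. A lasting difference between the lines and an effect of the shRNA cannot be told apart.

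With nutlin-3a, SNHG1, SNHG15, SNHG12 and SNHG8 lay close together in the lines. SNHG1 differed by 0.03 (-0.22 to 0.27), SNHG15 by 0.05 (-0.39 to 0.49), SNHG12 by 0.0012 (-1.20 to 1.20) and SNHG8 by -0.04 (-0.32 to 0.24). These intervals leave room for modest differences in either direction, and at SNHG12 for more than a doubling. ZFAS1 differed by -0.43 (-0.54 to -0.31), SNHG7 by -0.28 (-0.53 to -0.03) and SNHG5 by -0.25 (-0.36 to -0.14), all lower in LIMA1 shRNA cells. None reached 1, against 1.26% of genes higher and 1.94% lower, and none reached 0.5, against 5.81% and 6.74%. The median over the 7 was -0.04, beside 0.03 over all measured genes.

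The difference of responses, taken as the nutlin-3a difference in the LIMA1 line less that in the control line, puts these values together. It is built from the same 4 libraries, and so is not a further measurement. Because the genes were chosen with earlier results known, the shares given here only describe. The difference of responses is listed per gene. This difference was -0.71 for SNHG1 (-1.0 to -0.42), -0.60 for SNHG15 (-1.18 to -0.03) and -0.60 for SNHG7 (-0.93 to -0.27). For SNHG12 it was -0.51 (-1.95 to 0.88), for SNHG8 -0.42 (-0.81 to -0.04) and for SNHG5 -0.20 (-0.36 to -0.04). ZFAS1 alone was above 0, at 0.23 (0.05 to 0.42). A size of 0.5 was reached by 4 of 7 on the low side (SNHG1, SNHG7, SNHG12 and SNHG15), against 4.05% of genes. On the high side none reached it, against 5.17%. SNHG12 is under the mean of 30 that the genes in these shares passed, and its interval holds 0. With no filter on low values, 10.8% of genes were lower by 0.5. None of the 7 reached 1, against 1.27% of genes higher and 0.816% lower. Their median of -0.51 is the value of SNHG12 itself, beside 0.01 over all measured genes. Among the 2230 genes that also held values off whole fragments, 7.71% were lower by 0.5. In 5 of the 6 genes below 0, all but SNHG5, the untreated LIMA1 shRNA library was the highest of the 4.

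**Figure D3:**
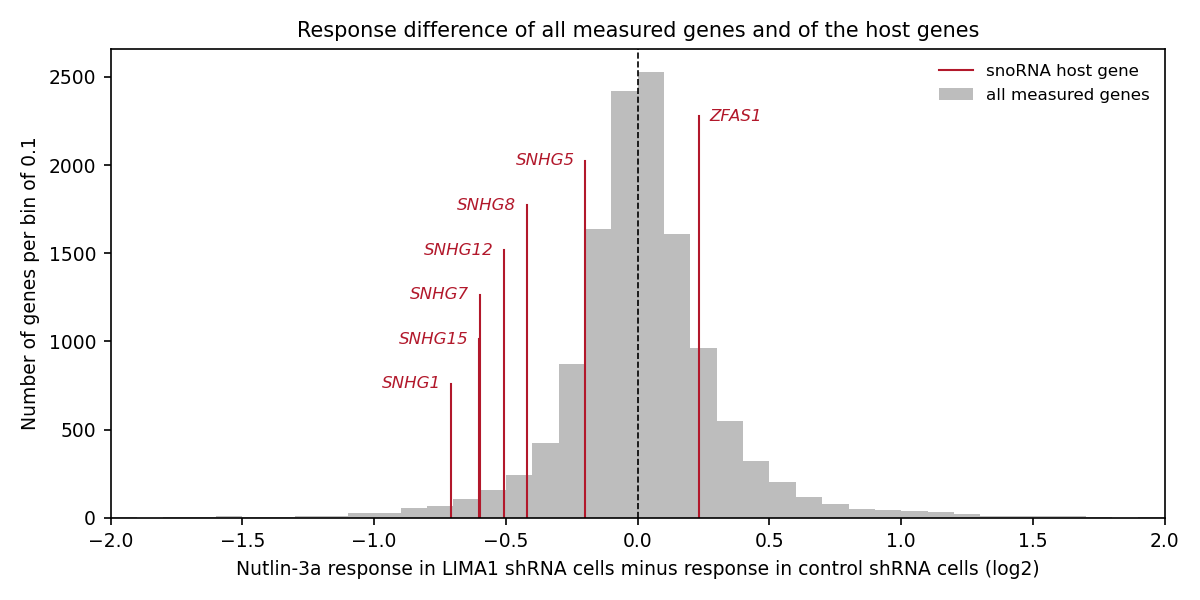
Number of genes (vertical axis) per bin of 0.1 of the difference of responses (horizontal axis, log2; nutlin-3a difference in the LIMA1 line less that in the control line), over 12742 measured genes, with the 7 host genes as lines of arbitrary height. SNHG1, SNHG15, SNHG7 and SNHG12 lie below -0.5, where 4.05% of genes lie, and ZFAS1 is at 0.23. SNHG12 is drawn although it is under the mean set for a measured gene.

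The other noncoding snoRNA hosts were centred near 0. Of 27 further names, 15 had a row and 9 were measured. In untreated cells, LIMA1 shRNA minus control, their median was -0.14, none reached 0.5, and SNHG16, the only 1 of the 4 named here with whole values, was lower at 1045 against 1347 normalized counts (-0.37), with SNHG17 at -0.33, SNHG4 at -0.27 and LRRC75A-AS1 at -0.20. Their median nutlin-3a difference was 0.04 in LIMA1 shRNA cells and 0.14 in control shRNA cells. SNHG4 was at -0.65 and -0.86 in these lines, and EPB41L4A-AS1 at 0.48 and 0.98. SNHG11 and SNHG21 moved in opposite directions, with 58.6 and 30.5 normalized counts in nutlin-3a-treated LIMA1 shRNA cells against 17.5 and 82.4 in nutlin-3a-treated control shRNA cells, and all but SNHG16 among those named held values off whole fragments. SNHG20, picked after its values were seen and for their spread, had 46.2, 3.86, 0.0020 and 30.8 in nutlin-3a-treated LIMA1 and control shRNA cells and untreated LIMA1 and control shRNA cells, and the cause of that spread was not tested.

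Protein-coding snoRNA hosts include ribosomal protein and translation factor genes. Of 38 listed, 37 were measured. Their median nutlin-3a difference was 0.11 in LIMA1 shRNA cells and 0.08 in control shRNA cells, with 3 and 2 genes lower by at least 1, near the shares of 6.08% and 5.64% of all measured genes in these lines. In LIMA1 shRNA and control shRNA cells NOP56 was at -1.26 and -1.28, DKC1 at -1.27 and -1.02, PPAN at -1.03 and -0.92 and the nucleolar protein gene NCL at -0.92 and -0.78, whereas the helicase gene EIF4A2 was at 0.80 and 0.94. Between the lines in untreated cells their median was -0.06 and none reached 0.5, the widest being the chaperone gene HSPA8 at -0.46. With nutlin-3a the median was -0.11, 30 of 37 lay below 0, against 45.4% of all measured genes, and none reached 0.5. Of the protein-coding hosts named here, PPAN held values off whole fragments.

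Most genes for proteins that bind snoRNAs or assemble their particles lay below 0 with nutlin-3a. Of 18 measured, 15 were below 0 in each line, against 51.5% of all measured genes, and the median was -0.64 in LIMA1 shRNA cells and -0.46 in control shRNA cells. By at least 1, 4 were lower in LIMA1 shRNA cells (6.08% of all genes) and 3 in control shRNA cells (5.64%), and none was higher. By 0.5, 12 were lower in LIMA1 shRNA cells (17.9% of all genes) and 8 in control shRNA cells (16.0%). The 3 genes above 0 in both lines were NOP10, of the H/ACA core, at 0.02 and 0.08, ZNHIT3 at 0.17 and 0.10 and the cap methyltransferase gene TGS1 at 0.32 and 0.26. The C/D core protein gene NOP56 had 2325 and 2147 normalized counts with nutlin-3a in LIMA1 and control shRNA cells, against 5585 and 5217 untreated. The pseudouridine synthase gene DKC1 had 1289 and 1390 with nutlin-3a in these lines, against 3101 and 2829 untreated. Both nutlin-3a libraries were well below both untreated ones for each gene. NOLC1, a snoRNP chaperone, was at -1.17 and -1.08, and NOP58, the partner of NOP56, at -1.02 and -0.79. Between the lines the medians were 0.06 untreated and -0.03 with nutlin-3a, and none reached 0.5. The assembly factor gene NUFIP1 was furthest, at 0.46 untreated. NOP56 and DKC1 are also in the list of protein-coding hosts. ZNHIT3 was off whole fragments in every library.

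Genes of nonsense-mediated decay, the pathway known to remove spliced host RNAs, showed smaller differences than 1 throughout. The median nutlin-3a difference over all 15 was -0.17 in LIMA1 shRNA cells, with 10 below 0, and -0.20 in control shRNA cells, with 13 below 0, against 51.5% of all measured genes in each line. By 0.5, 3 were lower in LIMA1 shRNA cells (17.9% of all genes) and 4 in control shRNA cells (16.0%). EIF4A3, of the exon junction complex, was at -0.97 and -0.71, and the endonuclease gene SMG6 at 0.78 and 0.68. In untreated cells the line difference had a median of 0.03 with none at 0.5, and the kinase gene SMG1 was at 0.36. With nutlin-3a the median was 0.05, and SMG1, at 3239 against 2172 normalized counts, was the 1 gene past 0.5 (0.58).

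**Figure D4:**
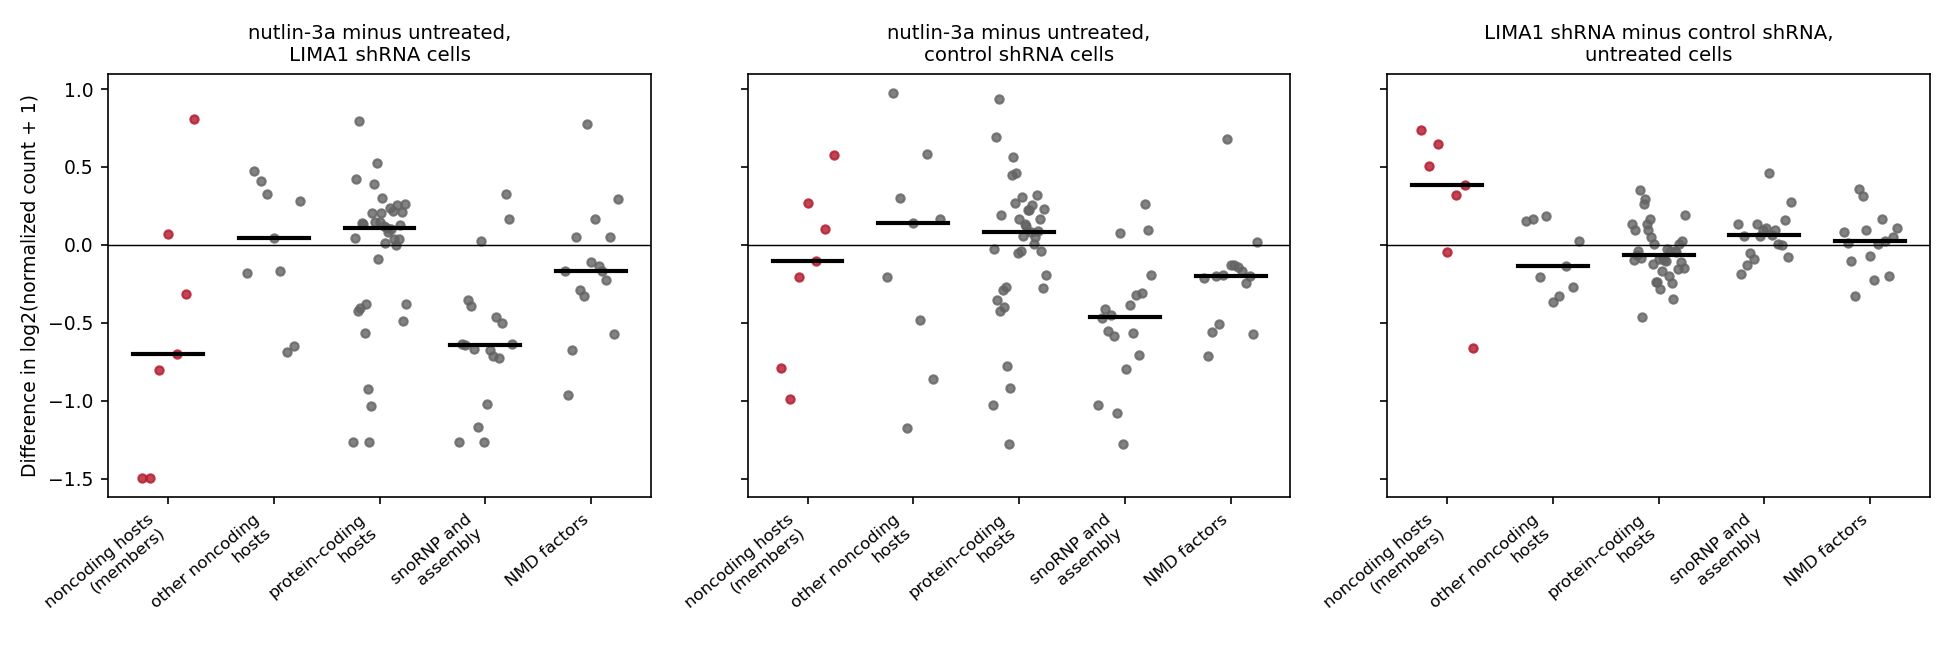
Differences in log2(normalized count + 1) for the 7 host genes (red) and the measured genes of the other lists (grey), with each list's median as a bar, for nutlin-3a minus untreated in LIMA1 shRNA cells and in control shRNA cells and for LIMA1 shRNA minus control shRNA in untreated cells. The snoRNP and assembly genes have medians of -0.64 and -0.46 in the first and second panels and 0.06 in the last, where the host genes have 0.38.

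Genes beside the hosts followed no common course. SLC3A2, whose start faces that of SNHG1, had 9816 and 12711 normalized counts with nutlin-3a in LIMA1 and control shRNA cells and 11393 and 11935 untreated. Its line difference in untreated cells was -0.07, where that of SNHG1 was 0.74. Its nutlin-3a difference was -0.21 in LIMA1 shRNA cells and 0.09 in control shRNA cells, where those of SNHG1 were -1.50 and -0.79. FAM69B, antisense to SNHG7 and off whole fragments too, differed by -0.05 between the untreated lines, and TRNAU1AP, antisense to SNHG12, by -0.11. ZBTB37, listed as a neighbour of GAS5, had 67.5 and 36.7 normalized counts with nutlin-3a in LIMA1 and control shRNA cells, against 36.6 and 49.0 untreated. SYNCRIP, listed as a neighbour of SNHG5, was at -0.92 and -0.74 with nutlin-3a in LIMA1 and control shRNA cells. Of the 10 listed neighbours 6 were measured, with medians of -0.15 and -0.28 for nutlin-3a in these lines.

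Among 10000 other genes whose mean reached 150 normalized counts, the 5 whose levels relative to untreated control shRNA cells lay nearest to the median course of the 7 host genes were ZSCAN12, ALKBH8, HEATR6, FZD5 and HERPUD1. That course was -0.16 in nutlin-3a-treated LIMA1 shRNA cells, -0.10 in nutlin-3a-treated control shRNA cells and 0.38 in untreated LIMA1 shRNA cells. The Euclidean distance of these genes over the 3 values was 0.04 to 0.08. With 3 values per gene such likeness is a description of these libraries.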

How the data were processed

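RNA sequencing of 4 A549 libraries was used, 1 per group, and groups were taken from the sample titles. The titles read siCont, siLIMA1, siCont+Nutlin and siLIMA1+Nutlin, and do not themselves say shRNA. Per the submitters' processing notes, bcl2fastq 1.8.3, Bowtie2 2.0.12, Cuffnorm 2.2.1 and the build hg19 were used, with no role or order. The deposited signal is, from the values, a fragment count per gene over 1 size factor per library, made by the authors. The sources used here do not state the annotation. The value of 1 fragment (0.943 to 1.07) was read from the low values, and 86.1% to 87.0% of values between 0.5 and 5000 fragments lay within 0.1 of a whole number. No count test was run.

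Differences are between log2(normalized count + 1) values, which understates changes of low genes. A gene was measured at a mean of at least 30 (12742 genes), called at a size of 1, and also counted at 0.5. Intervals of 2 libraries are exact Clopper-Pearson, of a response difference exact conditional odds ratios, and of a level exact Poisson. The calling step was tested on simulated whole fragments of genes with a mean of at least 30. That simulation does not cover values off whole fragments or SNHG12. Beside the 7 host genes, the text names genes from the up to 4 per list and contrast with the largest absolute differences. Also named are the 5 most alike genes, cell type markers, and LIMA1 and CDKN1A as checks of the labels. NOP10 and ZNHIT3 were named as exceptions in their list, and SNHG20, which was not measured, for its spread. Members and lists were chosen with earlier results of these data known. Reads carry no molecular identifiers. Start sites are RefSeq's and gene models GENCODE 29's. Computation used scipy 1.17.1, pandas 2.3.3, numpy 2.4.6 and Python 3.11.15.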

Additional observations from a re-analysis of the deposited data

Results flagged for a closer look

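SNHG7 differed between the lines in opposite directions in the treatments. LIMA1 shRNA minus control shRNA was -0.28 with nutlin-3a and 0.32 in untreated cells, with both counting intervals off 0. Beyond counting error the difference was not tested, since each group is 1 library.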

How the results depend on the processing

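Of 10 alternatives (pseudocounts of 0.5 and 30, upper-quartile, equal-total and median-centred scaling, no filter, a mean of at least 150, a size of 0.5 and, chosen after seeing the data, the 6 measured host genes alone and a background of genes off whole fragments), only the pseudocounts and scalings, 5 in all, can change a single gene's difference. All 175 host gene differences recomputed under these moved by less than their counting error, which is wide at SNHG12: with a pseudocount of 30 its nutlin-3a difference was -0.71 in LIMA1 shRNA cells and -0.42 in control shRNA cells. No scaling moved the median of all genes by 0.1. Counts near a size of 1 did change in number. For nutlin-3a in control shRNA cells, 1 host gene was lower with a pseudocount of 0.5, against 0. In LIMA1 shRNA cells, 1 was lower, against 2, with a pseudocount of 30, a mean of at least 150 or the measured genes alone, and the median was -0.32 with a mean of at least 150, where that in control shRNA cells turned to 0.10, against -0.10. At a size of 0.5 the counts were 1 higher and 2 lower for nutlin-3a in control shRNA cells, 1 and 4 in LIMA1 shRNA cells, 3 and 1 between the untreated lines, and 4 lower for the response difference. Host genes with whole values only gave no result, as there are none. No paired analysis was possible because each group has 1 library. SNHG12, with 13.4 to 42.8 fragments, is the host gene that depth limits most.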
